A study of Mus musculus with 26 samples.

Results

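The genes described here are 32 markers of disease-associated microglia, a list fixed by name and matched by symbol to Ensembl gene identifiers of the mouse build GRCm38. All 32 were found among the 52636 genes of the deposited count columns, and all 32 passed the filter on low counts that left 21371 genes for testing. The matching used no expression value, although the list was drawn up with earlier results of these data known. The question put to them was which members rise when Grn is lost and which stay flat.

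RNA-seq was done on polyadenylated RNA from mouse microglia, amplified with a kit made for very small inputs, in 26 libraries of 7 genotypes. With Tmem106b WT, 3 libraries were Grn WT, 5 were Grn HET and 4 were Grn KO. With Tmem106b HET, 4 were Grn WT, 3 were Grn HET and 3 were Grn KO, and 4 further libraries were Tmem106b KO with Grn WT. None of the 26 libraries combined Tmem106b KO with Grn HET or KO. The sources used here do not give the animals' age, the strain, how microglia were isolated, or how each allele was made. Whether the libraries of a group are from different animals is not stated either, so p-values reflect only how far these libraries spread, which may in part be technical. The 14 female and 12 male libraries came from dissections labelled Entire (18) or Hemi (8). With Tmem106b HET all female Grn WT and Grn KO libraries were Entire and all male ones Hemi. In the group with both genes WT it was the other way round, with replicates 1 and 3 male and Entire and replicate 2 female and Hemi. Within each of these groups sex and dissection cannot be told apart.

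Microglia are the resident macrophages of the brain. Around amyloid plaques, in demyelinated tissue and with age, some of them lower their resting-state genes and raise a set of genes for lipid handling, phagocytosis, lysosomal digestion and secreted signals, and the full change needs the receptor TREM2. Grn encodes progranulin, a secreted protein that is also carried to lysosomes, and Tmem106b encodes a lysosomal membrane protein whose common variants modify the risk of frontotemporal dementia with progranulin deficiency.

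The genotype labels were first checked against their own transcripts. Grn averaged 3345 CPM (read counts relative to library size, which was scaled by the trimmed mean of M values, TMM) in the WT group, 1414 CPM or 42.3% of that in Grn HET and 4.84 CPM in Grn KO with Tmem106b WT, and 2979.8, 1835 and 3.23 CPM in Grn WT, HET and KO with Tmem106b HET. Tmem106b averaged 77.6 ± 10.1 CPM (SD, n = 3) in WT and 28.2 ± 5.13 CPM (SD, n = 4) in Tmem106b KO, or 36.3% of WT, and its log2 fold change of -1.49 passed the test (adjusted p = 0.027). With 1 Tmem106b copy, the Grn WT libraries had 71.8, 46.3, 83.4 and 39.1 CPM of Tmem106b, which overlapped the 88.6, 68.7 and 75.5 CPM of wild type, so its transcript did not set Tmem106b HET apart. The Tmem106b HET group means were 60.2, 62.6 and 56.7 CPM in Grn WT, HET and KO. The sources used here do not give the deleted part, so how far the remaining Tmem106b reads fall outside it is not known. Total counts per library ran from 37562732 to 63710833. The defining microglia markers were detected in every library, but 2 Hemi libraries stood apart. Tmem106b HET Grn KO replicate 3 and Tmem106b KO replicate 2 had microglia marker sums of 7019 and 6736 CPM, against 19859 to 57163 CPM in the other 24, and neuron marker sums of 4723 and 4698 CPM. Tmem106b HET Grn WT replicate 3 had 23532 CPM of oligodendrocyte markers, against at most 10110 CPM elsewhere, with the highest sums of endothelial (410.2 CPM) and erythrocyte markers (343 CPM) and a median difference of the 32 members from wild type of -0.49 on the log2(CPM + 1) scale. Tmem106b WT Grn HET replicate 5 had 25277 CPM of choroid plexus markers, against at most 4542 CPM elsewhere. Without the first, 11 members instead of 13 were higher in Grn KO than in Grn WT with Tmem106b HET, and without the second, 15 instead of 12 were higher in Grn KO than in Grn HET with Tmem106b WT. Over all genes, 1322 instead of 1799 and 129 instead of 145 were then called higher. Results that rest on the 2 libraries low in microglia markers are given with and without them. In bulk samples, fewer cells of a type and less RNA per cell cannot be told apart.

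The sequences just before the start sites of 5 members show the letters that the promoter search turned up. RefSeq's GRCm38.p6 table held 25 of the 32 members, and the 250 bases before each start were searched on both strands for GGAAGT and GAGGAAG, cores bound by PU.1 and other ETS factors of the myeloid lineage, TGANTCA, the AP-1 site, CACGTG, the E-box, and TCATGTG, the M-box of the MITF and TFE family. These motifs were chosen after the windows had been seen. The windows of Spp1, Cst7, Axl, Plaur and Olr1 are printed because they hold a match and end before the annotated gene. Each is read 5′ to 3′ on the strand of its gene, with the matches in capitals, and a match on the other strand appears as its reverse complement.
Spp1, chr5:104434861-104435110, plus strand: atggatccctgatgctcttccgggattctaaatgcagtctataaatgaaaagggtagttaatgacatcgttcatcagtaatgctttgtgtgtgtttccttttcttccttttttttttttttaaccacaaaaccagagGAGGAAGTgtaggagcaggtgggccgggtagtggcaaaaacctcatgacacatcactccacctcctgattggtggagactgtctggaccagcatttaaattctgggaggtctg
Cst7, chr2:150570165-150570414, plus strand: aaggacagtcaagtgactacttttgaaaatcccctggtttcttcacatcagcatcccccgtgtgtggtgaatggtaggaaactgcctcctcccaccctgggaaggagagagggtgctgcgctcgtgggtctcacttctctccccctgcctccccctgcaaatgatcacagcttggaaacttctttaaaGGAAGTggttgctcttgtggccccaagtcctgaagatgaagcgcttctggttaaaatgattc
Axl, chr7:25788734-25788983, minus strand: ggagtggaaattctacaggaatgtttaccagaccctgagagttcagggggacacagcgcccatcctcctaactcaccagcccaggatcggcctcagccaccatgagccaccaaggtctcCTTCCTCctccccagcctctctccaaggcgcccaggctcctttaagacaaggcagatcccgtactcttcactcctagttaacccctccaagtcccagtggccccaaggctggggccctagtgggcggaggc
Plaur, chr7:24462233-24462482, plus strand: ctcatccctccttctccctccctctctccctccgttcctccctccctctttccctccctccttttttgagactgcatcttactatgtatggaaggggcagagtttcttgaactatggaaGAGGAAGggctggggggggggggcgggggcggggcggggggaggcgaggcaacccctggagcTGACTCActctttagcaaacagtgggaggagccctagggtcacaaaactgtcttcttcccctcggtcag
Olr1, chr6:129507166-129507415, minus strand: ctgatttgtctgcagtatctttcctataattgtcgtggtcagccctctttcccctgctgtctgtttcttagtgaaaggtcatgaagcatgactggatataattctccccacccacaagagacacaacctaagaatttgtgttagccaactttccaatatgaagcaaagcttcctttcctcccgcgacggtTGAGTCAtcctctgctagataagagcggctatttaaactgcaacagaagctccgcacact

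GGAAGT lay in the window of 6 of the 25 members, against 22.2% of all 27025 genes in the table, and in Spp1 it overlapped a GAGGAAG that begins 113 bases before the start. GAGGAAG itself was found in 5 members (12% of all genes). TGANTCA was found in 4 members (7.82% of all genes), namely Itgax, Igf1, Olr1 and Plaur. Only 1 member, Hif1a, held CACGTG (6.86% of all genes), and 2, Fabp3 and Fth1, held TCATGTG (3.72% of all genes). Spp1, Cst7, Axl and Plaur rose with Grn loss, as given below for each, and Olr1, which also held a match, did not pass the test. A match is a description of letters, not of a bound site.

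Many of the 32 genes were higher in Grn KO than in Grn WT in both Tmem106b backgrounds. With Tmem106b WT, 9 members were higher in Grn KO than in Grn WT at an adjusted p under 0.05 (edgeR's quasi-likelihood test, Benjamini-Hochberg adjusted), where 0.426% of all genes were called higher. With Tmem106b HET, 13 members were higher, where 8.42% of all genes were called higher. In a contrast that averages the log2 fold changes of both backgrounds, called the mean contrast from here on, 20 members were higher, beside 10.7% of all genes, and no member was lower in any of these fits, where 0.15%, 6.05% and 7.38% of all genes were called lower. The median log2 fold change of the 32 members was 1.38, 1.18 and 1.25 in the 3 comparisons, against 0.10, -0.02 and 0.06 over all genes tested. The 9 members called with Tmem106b WT, which were Fabp5, Lyz2, Vim, Anxa5, Igf1, Cst7, Aplp2, Spp1 and Clec7a, were all among the 13 called with Tmem106b HET, which added Fabp3, Timp2, Plaur and Ftl1. The mean contrast further added Axl, Dkk2, Csf1, Fth1, Hif1a, Capg and Cadm1.

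**Figure D1:**
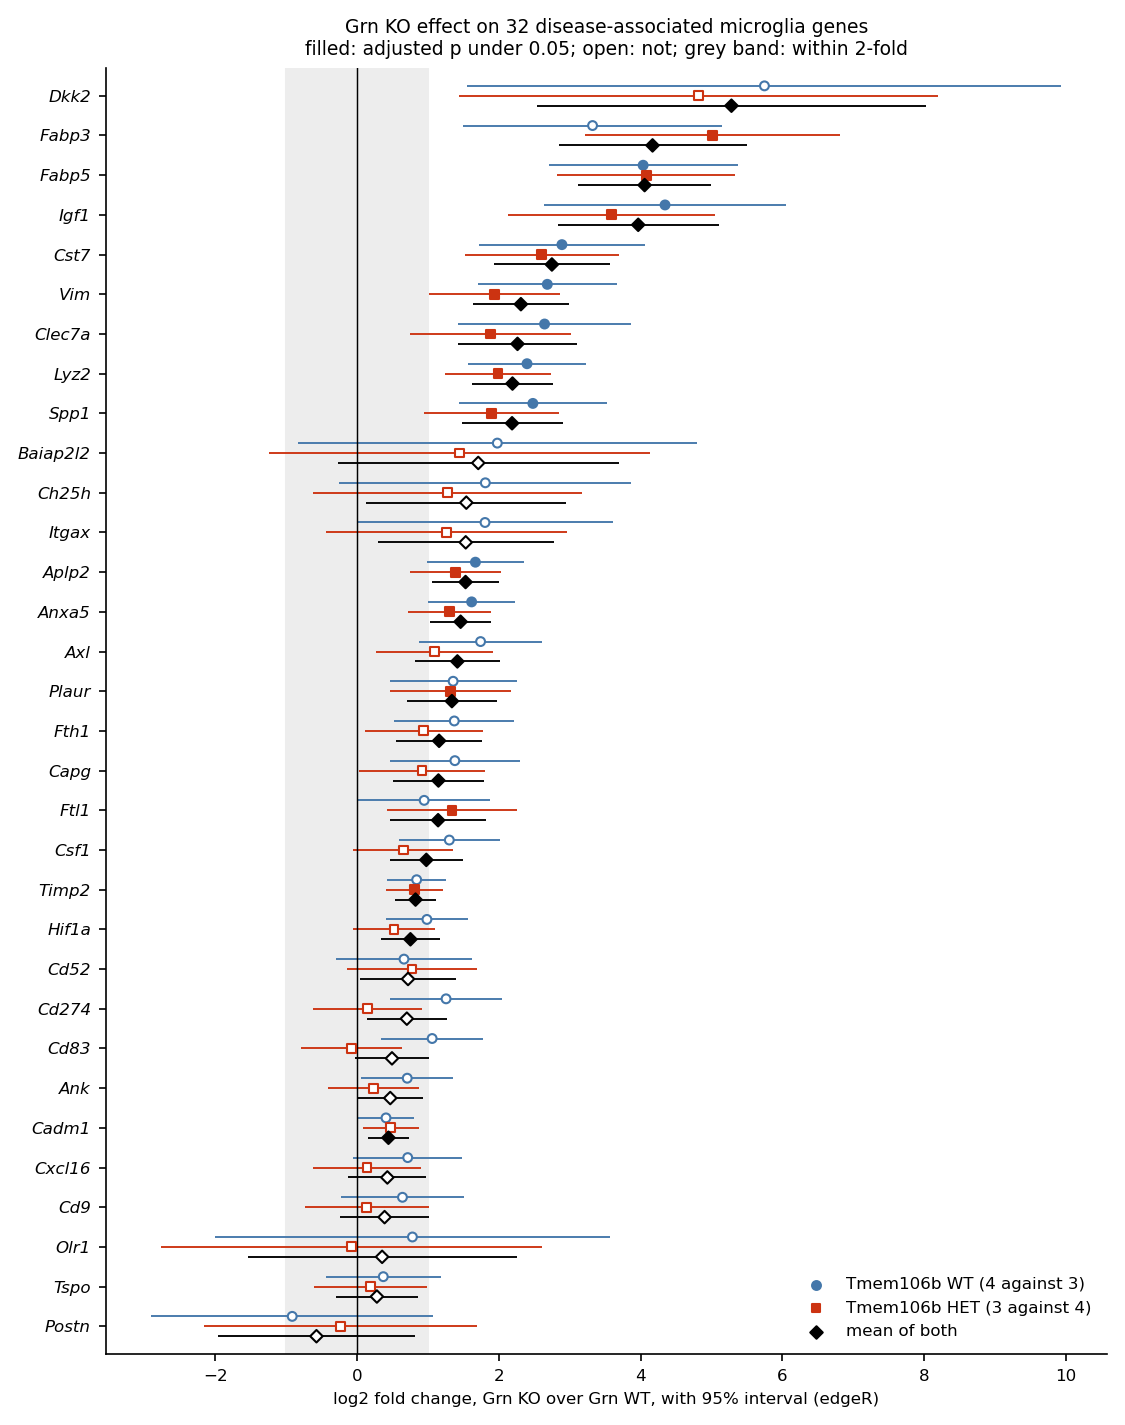
Log2 fold change of Grn KO against Grn WT (horizontal axis) for the 32 members, with 95% intervals, in Tmem106b WT, in Tmem106b HET and over the mean of both. Filled symbols had an adjusted p under 0.05 and the grey band marks changes within 2-fold. The longest shifts belong to Dkk2, Fabp5, Fabp3 and Igf1, and the intervals of Cadm1, Cxcl16, Ank and Tspo in the mean contrast lie inside the band.

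The count with Tmem106b WT leaned on single libraries. It was 0 without Grn WT replicate 2, 1 (Lyz2) without Grn WT replicate 3, 4 without Grn WT replicate 1 and 3 without Grn KO replicate 1. In the same order 1, 13, 26 and 36 of all genes were called higher, against 91 with all libraries, so the calls fell over all genes too. Grn WT replicate 2 was the only female and the only Hemi library of its group. No single library moved the count with Tmem106b HET outside 10 to 15, or that of the mean contrast outside 18 to 21. With Tmem106b HET, 837 to 1728 of all genes were called higher in those fits. In the mean contrast a count of 18 came without Tmem106b WT Grn WT replicate 2, beside 1363 genes. Without both libraries low in microglia markers, the 3 counts were 19, 21 and 26, beside 1.19%, 4.02% and 7.68% of the 22184 genes then tested. By the plainer measure of separation, 24 members were higher in every Grn KO library than in every Grn WT library with Tmem106b WT, beside 8.78% of all genes. With Tmem106b HET that held for 11 members, beside 9.85% of all genes, and for 28 members when replicate 3 was set aside, beside 14.5% of all genes.

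RNA of other cell types moved with these comparisons. With Tmem106b WT, the summed microglia markers ran from 37241 to 55629 CPM in Grn WT and from 23309 to 34805 CPM in Grn KO, without overlap. Summed neuron markers were 78.2, 971 and 105 CPM in Grn WT and 414 to 786 CPM in Grn KO of that background, and 40.9 to 1087 CPM in Grn WT and 524, 1722 and 4723 CPM in Grn KO with Tmem106b HET. In the mean contrast of Grn KO against Grn WT, 7 of 7 neuron markers were higher, 6 of 8 microglia markers were lower, and of the 7 markers of border macrophages, another brain macrophage, 0 were higher and 1 lower. None of the neuron markers was at 0 in any library. With the sums of neuron, oligodendrocyte and choroid plexus markers as covariates, the number of members called was 3 with Tmem106b WT, 0 with Tmem106b HET and 7 in the mean contrast, beside 0.0842%, 0.00936% and 0.412% of all genes. The 7 were Fabp5, Igf1, Lyz2, Cst7, Spp1, Vim and Anxa5, and the median log2 fold changes of the 32 members were then 1.5, 1.29 and 1.37. Beyond these values, the part of other cells in the changes was not tested.

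**Figure D2:**
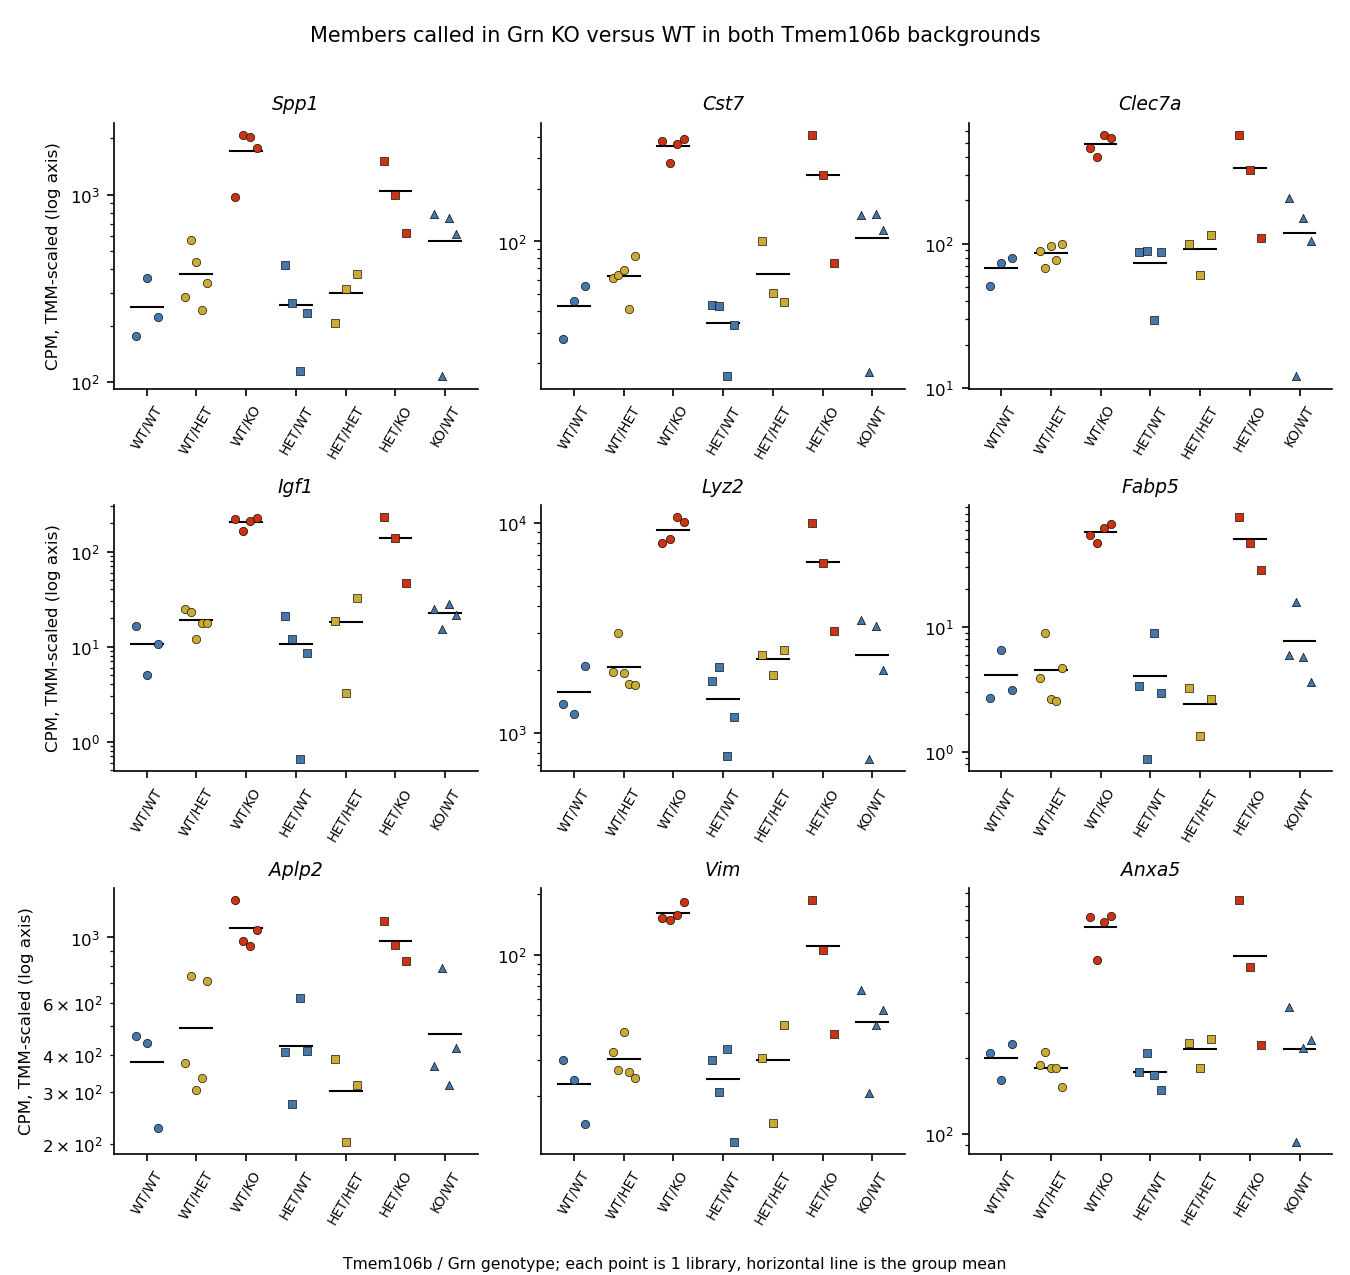
CPM on a log axis in each library (points) by genotype group (horizontal axis, with the group mean as a line) for the 9 members called higher with Grn KO in both Tmem106b backgrounds. Colour gives the Grn genotype and symbol shape the Tmem106b genotype. The 4 Grn KO libraries with Tmem106b WT lie above every Grn WT and Grn HET library of that background for all 9 genes.

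Of the 6 secreted signals, 2 rose in each background and 4 in the mean contrast. Among all genes, 0.426% were called higher with Tmem106b WT, 8.42% with Tmem106b HET and 10.7% in the mean contrast. Spp1 (osteopontin, a secreted ligand of integrins and CD44; chr5:104435118-104441050, plus strand) had 176, 358 and 224 CPM in the Grn WT and 974, 2086, 2031 and 1772 CPM in the Grn KO libraries with Tmem106b WT. With Tmem106b HET it had 424, 265, 114 and 235 CPM in Grn WT and 1515, 999 and 624 CPM in Grn KO. Every Grn KO library lay above every Grn WT library of its background. Its log2 fold change was 2.48 ± 0.50 (SE, adjusted p = 0.023) with Tmem106b WT and 1.89 ± 0.46 (adjusted p = 0.011) with Tmem106b HET.

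Igf1, insulin-like growth factor 1 (chr10:87858265-87937042, plus strand), was among the members that moved farthest. Its values were 16.3, 5.0 and 10.6 CPM in Grn WT and 218, 163, 211 and 226 CPM in Grn KO with Tmem106b WT. The Tmem106b HET libraries had 21.2, 12, 0.655 and 8.65 CPM in Grn WT and 229, 138 and 46.6 CPM in Grn KO. No Grn KO library overlapped Grn WT in either background, although replicate 3, the library low in microglia markers, was the lowest Grn KO library. The group means with Tmem106b WT were 10.7 ± 5.67 CPM (SD, n = 3) and 205 ± 28.2 CPM (SD, n = 4), and the log2 fold changes were 4.35 ± 0.82 (SE, adjusted p = 0.014) and, with Tmem106b HET, 3.59 ± 0.70 (adjusted p = 0.0041).

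Dkk2, a secreted modulator of Wnt receptors, was low in Grn WT, at 0, 3.08 and 0.0289 CPM with Tmem106b WT, and reached 37.6, 22.1, 30.7 and 35.6 CPM in Grn KO. With Tmem106b HET the Grn WT libraries had 0.416, 1.21, 0.283 and 0 CPM and the Grn KO libraries 29.8, 17.9 and 0.772 CPM. Groups were separate with Tmem106b WT, while replicate 3 of the Tmem106b HET Grn KO group fell among the Grn WT libraries. Dkk2 was called in the mean contrast (log2 fold change 5.28 ± 1.32, SE, adjusted p = 0.0092) and in neither background alone (adjusted p = 0.23 and 0.051).

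Csf1, the growth factor that binds the CSF1 receptor microglia depend on, had 59.9, 84.9 and 54.7 CPM in Grn WT and 164, 146, 179 and 253 CPM in Grn KO with Tmem106b WT. The Tmem106b HET values were 83.1, 68.1, 86.6 and 61.9 CPM in Grn WT and 209, 152 and 60.3 CPM in Grn KO. All but the last of these Grn KO libraries exceeded Grn WT. Csf1 was called only in the mean contrast (log2 fold change 0.98 ± 0.25, SE, adjusted p = 0.0096). The remaining signals were not called in any of the 3 comparisons. Cxcl16, a chemokine made in a membrane-bound form, had 145, 124 and 167 CPM in Grn WT and 252, 217, 324 and 315 CPM in Grn KO with Tmem106b WT, with no overlap. In the Tmem106b HET background it had 138, 209.7, 80.8 and 115 CPM in Grn WT and 309, 189 and 62.8 CPM in Grn KO, which lay on both sides of Grn WT. It had a log2 fold change of 0.43 in the mean contrast (95% interval -0.12 to 0.98, adjusted p = 0.28). Postn, the matrix protein periostin, was the only member with a negative mean estimate, at -0.57 (95% interval -1.96 to 0.82, adjusted p = 0.6).

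Of the 12 surface receptors and membrane proteins, 2 were higher with Tmem106b WT, 3 with Tmem106b HET and 5 in the mean contrast. The shares of all genes called higher were 0.426%, 8.42% and 10.7%, so the 3 counts do not compare directly. Clec7a (dectin-1, a C-type lectin receptor for beta-glucan; chr6:129461591-129472779, minus strand) had 50.7, 73.8 and 79.9 CPM in Grn WT and 460.1, 395, 561 and 536 CPM in Grn KO with Tmem106b WT. In the Tmem106b HET background it had 87.7, 88.4, 29.7 and 87.1 CPM in Grn WT and 567, 324 and 109 CPM in Grn KO. The groups did not overlap in either background. Its log2 fold change was 2.65 ± 0.58 (SE, adjusted p = 0.04) and 1.88 ± 0.55 (adjusted p = 0.027).

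Aplp2, a relative of the amyloid precursor protein (chr9:31149557-31211815, minus strand), had 465, 439.5 and 227 CPM in Grn WT and 1339, 972, 936 and 1063 CPM in Grn KO with Tmem106b WT. With Tmem106b HET the Grn WT libraries had 409.7, 273, 625 and 411 CPM and the Grn KO libraries 1141, 939.6 and 832 CPM. All Grn KO libraries were higher than Grn WT, including replicate 3. Neurons, whose marker RNA was highest in that library, also express Aplp2, and their part in its value was not tested. Tmem106b KO replicate 2, with Grn WT and also high in neuron markers, had 786 CPM of Aplp2. The rest of that group had 366, 315 and 421 CPM. The log2 fold change of Aplp2 was 1.67 ± 0.33 (SE, adjusted p = 0.017) with Tmem106b WT and 1.39 ± 0.31 (adjusted p = 0.0071) with Tmem106b HET.

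Axl, a receptor tyrosine kinase that helps phagocytes take up dying cells, had 169, 165 and 136 CPM in Grn WT and 615, 544, 496 and 569 CPM in Grn KO with Tmem106b WT. The Tmem106b HET libraries had 254, 171, 119 and 129 CPM in Grn WT and 552, 491 and 145 CPM in Grn KO. Replicate 3 of the last group fell among the Grn WT values and the others did not. Axl missed the threshold in each background (adjusted p = 0.063 and 0.07) and passed it in the mean contrast (log2 fold change 1.42 ± 0.29, SE, adjusted p = 0.0026). Plaur, the urokinase receptor, had 39.0, 40.3 and 57.6 CPM in Grn WT and 101, 102, 148 and 188 CPM in Grn KO with Tmem106b WT. With Tmem106b HET its values were 50.2, 41.6, 16.9 and 33.0 CPM in Grn WT and 184, 96.8 and 41.8 CPM in Grn KO, where only replicate 3 overlapped Grn WT. It was called with Tmem106b HET (1.32 ± 0.41, SE, adjusted p = 0.037) and in the mean contrast (1.34 ± 0.30, adjusted p = 0.005).

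Itgax, which encodes the integrin CD11c and is a usual label of disease-associated microglia, was not called in the fit of all libraries. Its values with Tmem106b WT were 39.97, 56.5 and 22.9 CPM in Grn WT and 162, 200.2, 118 and 136 CPM in Grn KO. With Tmem106b HET they were 56.1, 52.9, 11.4 and 35.0 CPM in Grn WT and 136, 103 and 57.2 CPM in Grn KO. The groups did not overlap in either background, yet the mean log2 fold change of 1.53 had a 95% interval of 0.29 to 2.78 (adjusted p = 0.079). Itgax was at 0.177 CPM in Tmem106b KO replicate 2, 1 of the libraries low in microglia markers. Without both of those libraries its log2 fold change was 1.86 (adjusted p = 0.022) with Tmem106b WT, 1.51 (adjusted p = 0.048) with Tmem106b HET and 1.69 (adjusted p = 0.0015) in the mean contrast.

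Cd9 and Cd52, abundant surface proteins, were not called in the fit of all libraries. Cd9, a tetraspanin, had 1115, 899.6 and 1531 CPM in Grn WT and 2079, 1578, 2239.6 and 2162 CPM in Grn KO with Tmem106b WT. With Tmem106b HET it had 1117, 1043, 793 and 982 CPM in Grn WT and 2693, 1196 and 426 CPM in Grn KO. The first background showed no overlap, and in the second the Grn KO libraries lay on both sides of Grn WT. The mean log2 fold change was 0.39 (95% interval -0.24 to 1.02, adjusted p = 0.4). Cd52, a small glycoprotein anchored in the membrane of leukocytes, had 130.5, 137 and 252 CPM in Grn WT and 241, 285, 379.8 and 329 CPM in Grn KO with Tmem106b WT, where 1 Grn KO library overlapped Grn WT. Under Tmem106b HET, values were 169.7, 124, 91.3 and 94.5 CPM in Grn WT and 408, 199 and 112 CPM in Grn KO. Its mean log2 fold change was 0.72 (95% interval 0.05 to 1.40, adjusted p = 0.13).

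Cd83, an activation marker of antigen-presenting cells, was not called in either background. It had 518, 353 and 596 CPM in Grn WT and 942, 584, 1573 and 1817 CPM in Grn KO with Tmem106b WT. With Tmem106b HET it had 483, 720.0, 354 and 623 CPM in Grn WT and 1047, 885 and 212 CPM in Grn KO, and its log2 fold change was -0.07 (adjusted p = 0.92), against 0.38 without both libraries low in microglia markers. Cd274, the ligand PD-L1, ran from 16.1 to 32 CPM in Grn WT and from 45.4 to 74.1 CPM in Grn KO with Tmem106b WT, with no overlap. Among Tmem106b HET libraries it had 41.1, 35.5, 35.2 and 30.1 CPM in Grn WT and 64.7, 55.9 and 18.7 CPM in Grn KO, which lay on both sides of Grn WT. Its mean log2 fold change was 0.70 (95% interval 0.14 to 1.27, adjusted p = 0.075). Cadm1, an adhesion molecule, had 414, 303 and 375 CPM in Grn WT and 555, 384, 506 and 499.7 CPM in Grn KO with Tmem106b WT. The Tmem106b HET libraries had 274, 292, 313 and 283 CPM in Grn WT and 590.4, 414 and 276 CPM in Grn KO. Groups overlapped through 1 Grn KO library in each background, and Cadm1 rose by a small amount, with a mean log2 fold change of 0.44 ± 0.14 (SE, 95% interval 0.16 to 0.73, adjusted p = 0.03).

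The other 2 members of this class were not called in the fit of all libraries. Ank, a transporter that exports pyrophosphate, had 110.1, 140.1 and 60.2 CPM in Grn WT and 156, 219.7, 136 and 164 CPM in Grn KO with Tmem106b WT, which overlapped. With Tmem106b HET the Grn KO libraries, at 162, 125 and 94.3 CPM, lay within the Grn WT libraries, at 105, 60.3, 209 and 83.2 CPM. Its mean log2 fold change was 0.47 (95% interval 0.01 to 0.93, adjusted p = 0.15). Olr1, a scavenger receptor for oxidised low-density lipoprotein, had 2.39, 3.48 and 4.45 CPM in Grn WT and 4.34, 3.30, 8.99 and 7.26 CPM in Grn KO with Tmem106b WT, which overlapped. The Tmem106b HET groups overlapped too, at 6.42, 3.63, 2.28 and 3.88 CPM in Grn WT and 3.73, 1.54 and 5.93 CPM in Grn KO. Its interval of -1.54 to 2.25 around a mean log2 fold change of 0.36 (adjusted p = 0.83) reached past 2-fold in both directions.

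The secreted digestive enzyme and the protease inhibitors rose together, with 2 of 3 called with Tmem106b WT and 3 of 3 with Tmem106b HET and in the mean contrast. This stood beside 0.426%, 8.42% and 10.7% of all genes called higher in the 3 comparisons. Lyz2, the lysozyme of myeloid cells (chr10:117277331-117282321, minus strand), had 1373, 1231 and 2073 CPM in Grn WT and 8008, 8417, 10602 and 10107 CPM in Grn KO with Tmem106b WT. In the Tmem106b HET background it had 1767, 2053, 778 and 1189 CPM in Grn WT and 9981, 6464 and 3042 CPM in Grn KO. The lowest Grn KO library of each background exceeded the highest Grn WT library. Its log2 fold change was 2.40 ± 0.40 (SE, adjusted p = 0.0077) and 1.99 ± 0.36 (adjusted p = 0.0029).

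Cst7, cystatin F, an inhibitor of lysosomal cysteine proteases (chr2:150570415-150578944, plus strand), had 27.4, 45.7 and 55.2 CPM in Grn WT and 378, 281, 360.2 and 386 CPM in Grn KO with Tmem106b WT. The Tmem106b HET libraries had 43.1, 42.6, 16.8 and 33.1 CPM in Grn WT and 409, 240.1 and 75.7 CPM in Grn KO. Both backgrounds were free of overlap, with replicate 3 again lowest among Grn KO. By the test, the log2 fold change was 2.89 ± 0.56 (SE, adjusted p = 0.017) and 2.61 ± 0.52 (adjusted p = 0.0045). Timp2, an inhibitor of matrix metalloproteinases, had a smaller difference, from 1882, 1504 and 1936 CPM in Grn WT to 3267, 2706, 3328 and 3848 CPM in Grn KO with Tmem106b WT. With Tmem106b HET it had 1422, 1603, 1179 and 1380.2 CPM in Grn WT and 3783, 2539.9 and 1547 CPM in Grn KO. Only the last of these lay within the Grn WT range, and Timp2 was called with Tmem106b HET (log2 fold change 0.81 ± 0.19, SE, adjusted p = 0.0097) but not with Tmem106b WT (0.84, adjusted p = 0.059).

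Of the 4 genes of lipid handling, 1 rose with Tmem106b WT and 2 with Tmem106b HET and in the mean contrast. Over all genes, 0.426%, 8.42% and 10.7% were called higher in these comparisons. Fabp5, a cytosolic fatty acid binding protein (chr3:10012548-10016607, plus strand), had the smallest p of all members. It had 2.72, 6.53 and 3.15 CPM in Grn WT and 54.0, 47.2, 62.1 and 66.6 CPM in Grn KO with Tmem106b WT. Values with Tmem106b HET were 3.37, 0.88, 8.96 and 2.96 CPM in Grn WT and 74.9, 47.1 and 28.5 CPM in Grn KO. The groups were far apart in both backgrounds. Its log2 fold change was 4.04 ± 0.64 (SE, adjusted p = 0.006) and 4.08 ± 0.60 (adjusted p = 0.0016), and 4.06 ± 0.45 (adjusted p = 3.4e-05) in the mean contrast. In Tmem106b KO replicate 2, with Grn WT and high in neuron markers, Fabp5 was at 15.8 CPM. The rest of that group had 6.01, 5.74 and 3.65 CPM. The part of neurons in the Fabp5 values was not tested. Low counts of Fabp5 are uncertain, since 5 other genes matched its transcript at 90% identity or more. The closest, the pseudogene Gm6166, matched at 98.3% identity. Gm6166 averaged 3.10 CPM over all libraries before TMM scaling, beside 17.5 CPM for Fabp5.

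Fabp3, the related heart-type protein, stayed low, at 0.154, 0.747 and 0.26 CPM in Grn WT and 2.02, 1.72, 2.35 and 2.70 CPM in Grn KO with Tmem106b WT. With Tmem106b HET it had 0.099, 0.0367, 0.372 and 0.566 CPM in Grn WT and 4.26, 2.39 and 6.57 CPM in Grn KO. Its highest values, 6.57 and 6.5 CPM, were in the 2 libraries with the most neuron marker RNA, and the part of neurons in them was not tested. It was called with Tmem106b HET (log2 fold change 5.02 ± 0.86, SE, adjusted p = 0.0022) and not with Tmem106b WT (3.32, adjusted p = 0.095). Fabp3 is also uncertain because a pseudogene, Fabp3-ps1, matched its transcript at 99.3% identity and averaged 1.35 CPM over all libraries before TMM scaling, beside 1.52 CPM for Fabp3 itself. Ch25h, which makes 25-hydroxycholesterol, had 2.83, 6.53 and 4.65 CPM in Grn WT and 9.06, 20.7, 28.5 and 21.6 CPM in Grn KO with Tmem106b WT, with no overlap. With Tmem106b HET the Grn WT libraries had 9.40, 6.88, 2.71 and 3.14 CPM and the Grn KO libraries 23.4, 12.4 and 7.31 CPM, and only replicate 3 overlapped. Its mean log2 fold change of 1.54 had a 95% interval of 0.13 to 2.95 (adjusted p = 0.12). Tspo, the outer mitochondrial membrane protein targeted by imaging tracers of neuroinflammation, had 114, 87.4 and 177 CPM in Grn WT and 154, 140.0, 220.1 and 201 CPM in Grn KO with Tmem106b WT, which overlapped. Its Tmem106b HET values were 98.7, 124, 80.1 and 83.6 CPM in Grn WT and 229, 126 and 57.0 CPM in Grn KO, on both sides of Grn WT. With a mean log2 fold change of 0.28 (95% interval -0.30 to 0.86, adjusted p = 0.52), its change was within 2-fold.

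Among the 4 genes of cytoskeleton and membrane binding, Vim and Anxa5 rose in both backgrounds and Capg in the mean contrast. Of all genes, 0.426% and 8.42% were called higher in the 2 backgrounds and 10.7% in the mean contrast. Vim, the intermediate filament protein vimentin (chr2:13573927-13582826, plus strand), had 30.1, 23.9 and 14.4 CPM in Grn WT and 152, 147, 157 and 182 CPM in Grn KO with Tmem106b WT. The Tmem106b HET libraries had 30.2, 20.9, 33.9 and 11.9 CPM in Grn WT and 186, 105 and 40.4 CPM in Grn KO. Every Grn KO library was higher than Grn WT. The estimated log2 fold change was 2.69 ± 0.47 (SE, adjusted p = 0.011) and 1.94 ± 0.44 (adjusted p = 0.0079).

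Anxa5, which binds phosphatidylserine on membranes (chr3:36448923-36475894, minus strand), had 209, 163 and 226 CPM in Grn WT and 723, 486, 688 and 729 CPM in Grn KO with Tmem106b WT. The Tmem106b HET values were 176, 208, 171 and 149 CPM in Grn WT and 841, 456 and 225 CPM in Grn KO. Replicate 3 exceeded the Grn WT libraries by little, and the others by far more. Its log2 fold change was 1.62 ± 0.29 (SE, adjusted p = 0.011) and 1.31 ± 0.28 (adjusted p = 0.0062). Capg, which caps actin filaments, had 125, 100.4 and 134 CPM in Grn WT and 316, 279, 363 and 409 CPM in Grn KO with Tmem106b WT, with no overlap. Its Tmem106b HET values were 123, 127, 88.1 and 109 CPM in Grn WT and 436, 234 and 101 CPM in Grn KO, where replicate 3 fell among the Grn WT libraries. Capg was called in the mean contrast (log2 fold change 1.15 ± 0.31, SE, adjusted p = 0.014). Baiap2l2, which bends membranes at actin protrusions, was rare, at 0.283, 0.769 and 0.636 CPM in Grn WT and 2.37, 2.23, 2.92 and 2.92 CPM in Grn KO with Tmem106b WT. The Tmem106b HET libraries had 1.27, 0.458, 0 and 0.647 CPM in Grn WT and 2.72, 2.83 and 0.0857 CPM in Grn KO, where replicate 3 fell among the Grn WT libraries. Its mean log2 fold change of 1.71 was too imprecise to pass (95% interval -0.27 to 3.70, adjusted p = 0.23).

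The 2 iron storage subunits and the transcription factor all passed the test in the mean contrast, where 10.7% of all genes were called higher. Fth1, the ferritin heavy chain, had 3195, 2271 and 3621 CPM in Grn WT and 7068, 6356, 9377 and 10208 CPM in Grn KO with Tmem106b WT. With Tmem106b HET it had 2533, 1911, 3797 and 1818 CPM in Grn WT and 10228, 5342 and 2168 CPM in Grn KO. All Grn KO libraries apart from replicate 3 of the second background were higher, and Fth1 was called in the mean contrast (log2 fold change 1.16 ± 0.29, SE, adjusted p = 0.01). Ftl1, the light chain, had 44.8, 30.2 and 84.2 CPM in Grn WT and 84.4, 81.3, 128 and 145 CPM in Grn KO with Tmem106b WT, which overlapped through 1 library each. With Tmem106b HET the Grn WT libraries had 34.2, 32.7, 29.1 and 29.7 CPM and the Grn KO libraries 216, 76.2 and 30.6 CPM, the last within the Grn WT range. Ftl1 was called with Tmem106b HET (1.34 ± 0.44, SE, adjusted p = 0.046) and in the mean contrast (1.15 ± 0.32, adjusted p = 0.019). Its counts are uncertain, since 8 other genes matched its transcript at 90% identity or more. Hif1a, the oxygen-regulated subunit of hypoxia-inducible factor, had 187, 145 and 243 CPM in Grn WT and 492, 283, 339 and 396 CPM in Grn KO with Tmem106b WT, with no overlap. Among Tmem106b HET libraries it had 181, 169, 164 and 177 CPM in Grn WT and 414, 310.0 and 117 CPM in Grn KO, so that replicate 3 lay below every Grn WT library. Hif1a was called in the mean contrast (0.75 ± 0.20, SE, adjusted p = 0.013).

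**Figure D3:**
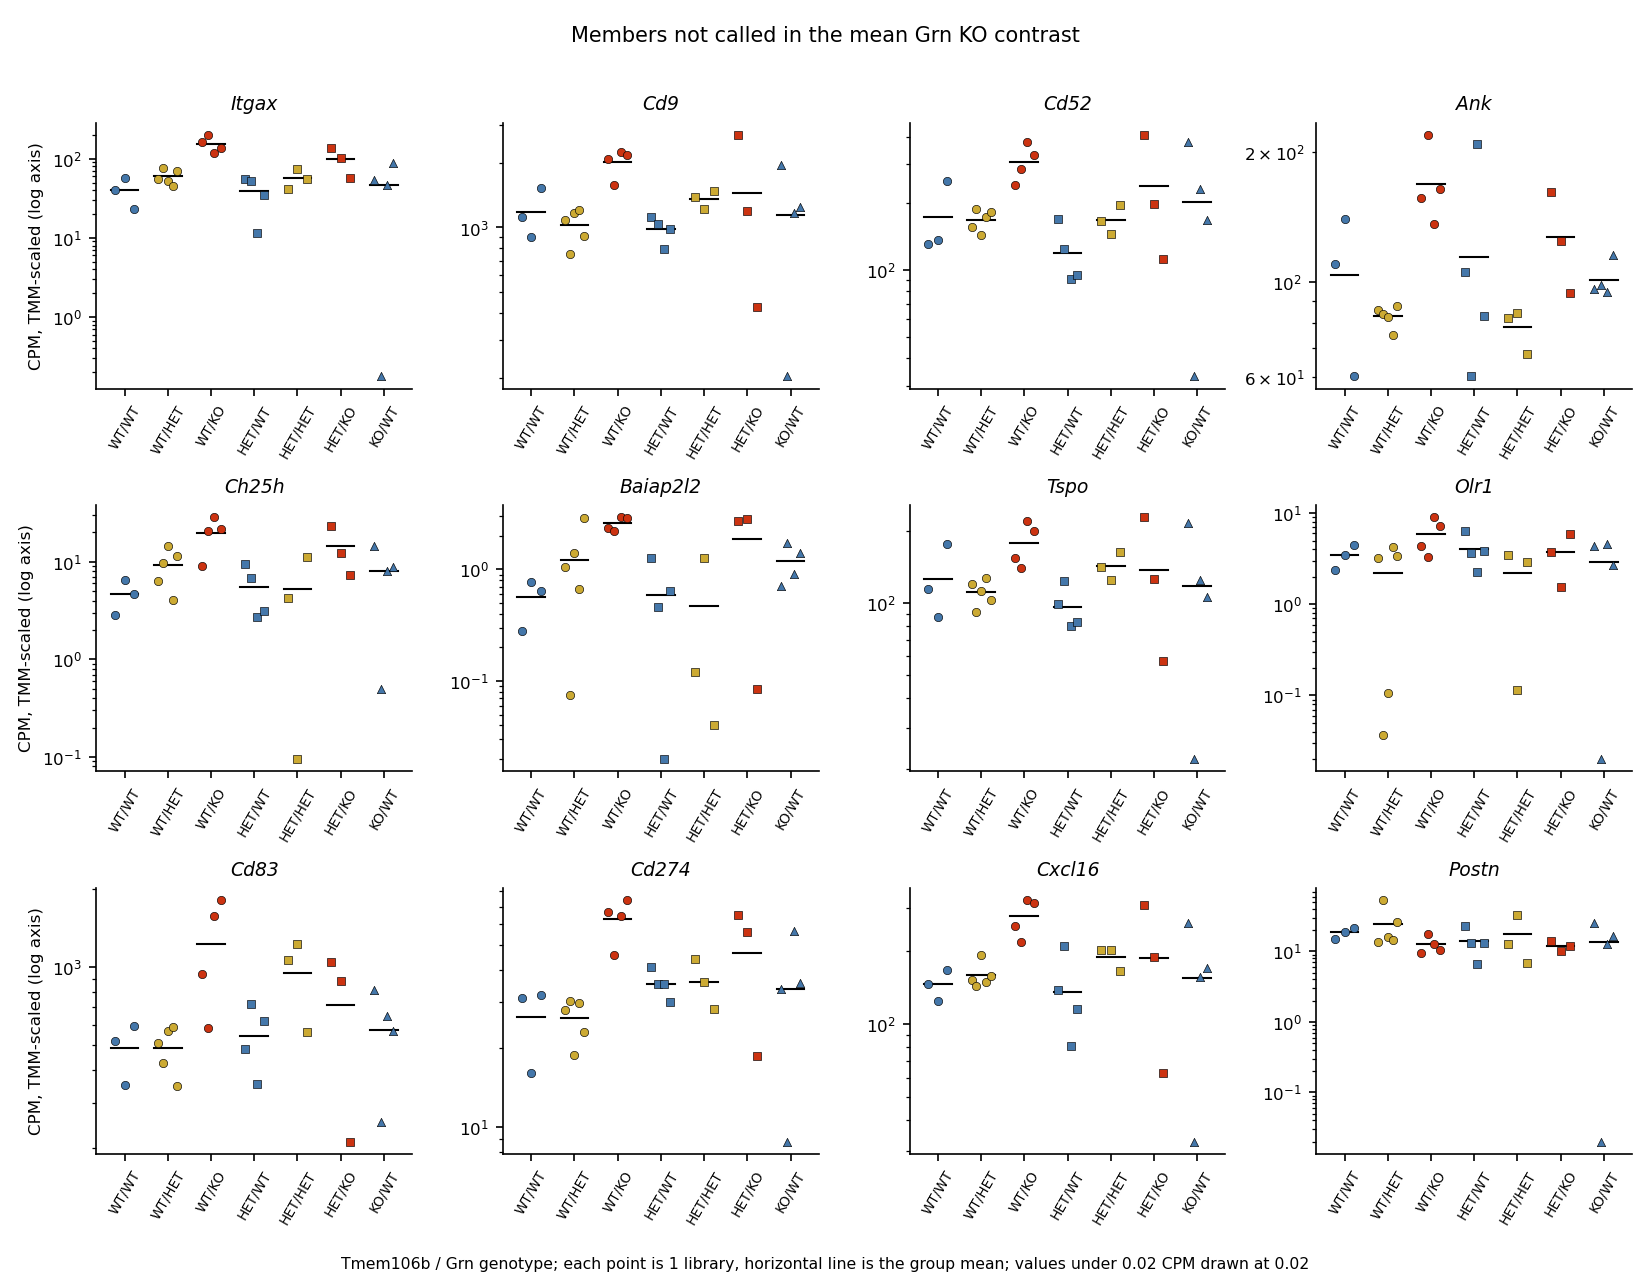
CPM on a log axis in each library (points) by genotype group (horizontal axis, with the group mean as a line) for the 12 members that did not pass the test in the mean contrast of Grn KO against Grn WT. Values under 0.02 CPM are drawn at 0.02. Itgax, Ch25h, Cd274, Cd9, Cxcl16 and Baiap2l2 show separate Grn WT and Grn KO groups with Tmem106b WT, whereas Olr1, Postn, Tspo, Ank, Cd52 and Cd83 overlap.

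The 12 members that missed the threshold in the mean contrast were not one kind of gene. For Ank, Cxcl16 and Tspo the 95% interval lay within a 2-fold change in either direction. This bounds the size of a change and does not show that there was none. For Ank both ends of the interval were positive. Ank passed the test of the mean contrast in Entire libraries alone and without Tmem106b HET Grn WT replicate 3. That library had 209 CPM of Ank, the highest value among Grn WT libraries of that background. For the other 9 the interval reached past 2-fold, so they were undecided rather than flat. Without both libraries low in microglia markers all 20 called members remained called, and 6 more passed, which were Itgax, Cd274 (log2 fold change 0.98, adjusted p = 0.0017), Cd9 (0.72, adjusted p = 0.0086), Cxcl16 (0.69, adjusted p = 0.01), Cd52 (0.93, adjusted p = 0.012) and Cd83 (0.76, adjusted p = 0.032). The members called in neither fit were Tspo (0.51, adjusted p = 0.07), Ank (0.67, adjusted p = 0.058), Ch25h (1.71, adjusted p = 0.096), Baiap2l2 (2.06, adjusted p = 0.16), Postn (-0.63, adjusted p = 0.27) and Olr1 (-0.02, adjusted p = 1). In the 18 Entire libraries alone 14, 19 and 26 members were higher with Tmem106b WT, with Tmem106b HET and in the mean contrast, beside 0.908%, 3.56% and 7.94% of all genes, and Postn was lower (-0.99, adjusted p = 0.044).

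Compared per length by the authors' RPKM, the members spanned a wide range of levels. With all wild-type alleles Fth1 led at 2847 RPKM, followed by Lyz2 at 966 RPKM and Cd9 at 784 RPKM, and Spp1 stood seventh of 32 at 129 RPKM. In Grn KO with Tmem106b WT, Fth1 reached 7361 RPKM, Lyz2 5478 RPKM and Cd9 1272 RPKM, and Spp1 moved up to rank 4 at 814 RPKM. The lowest members in wild type were Fabp3 at 0.408 RPKM, Dkk2 at 0.256 RPKM and Baiap2l2 at 0.194 RPKM.

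**Figure D4:**
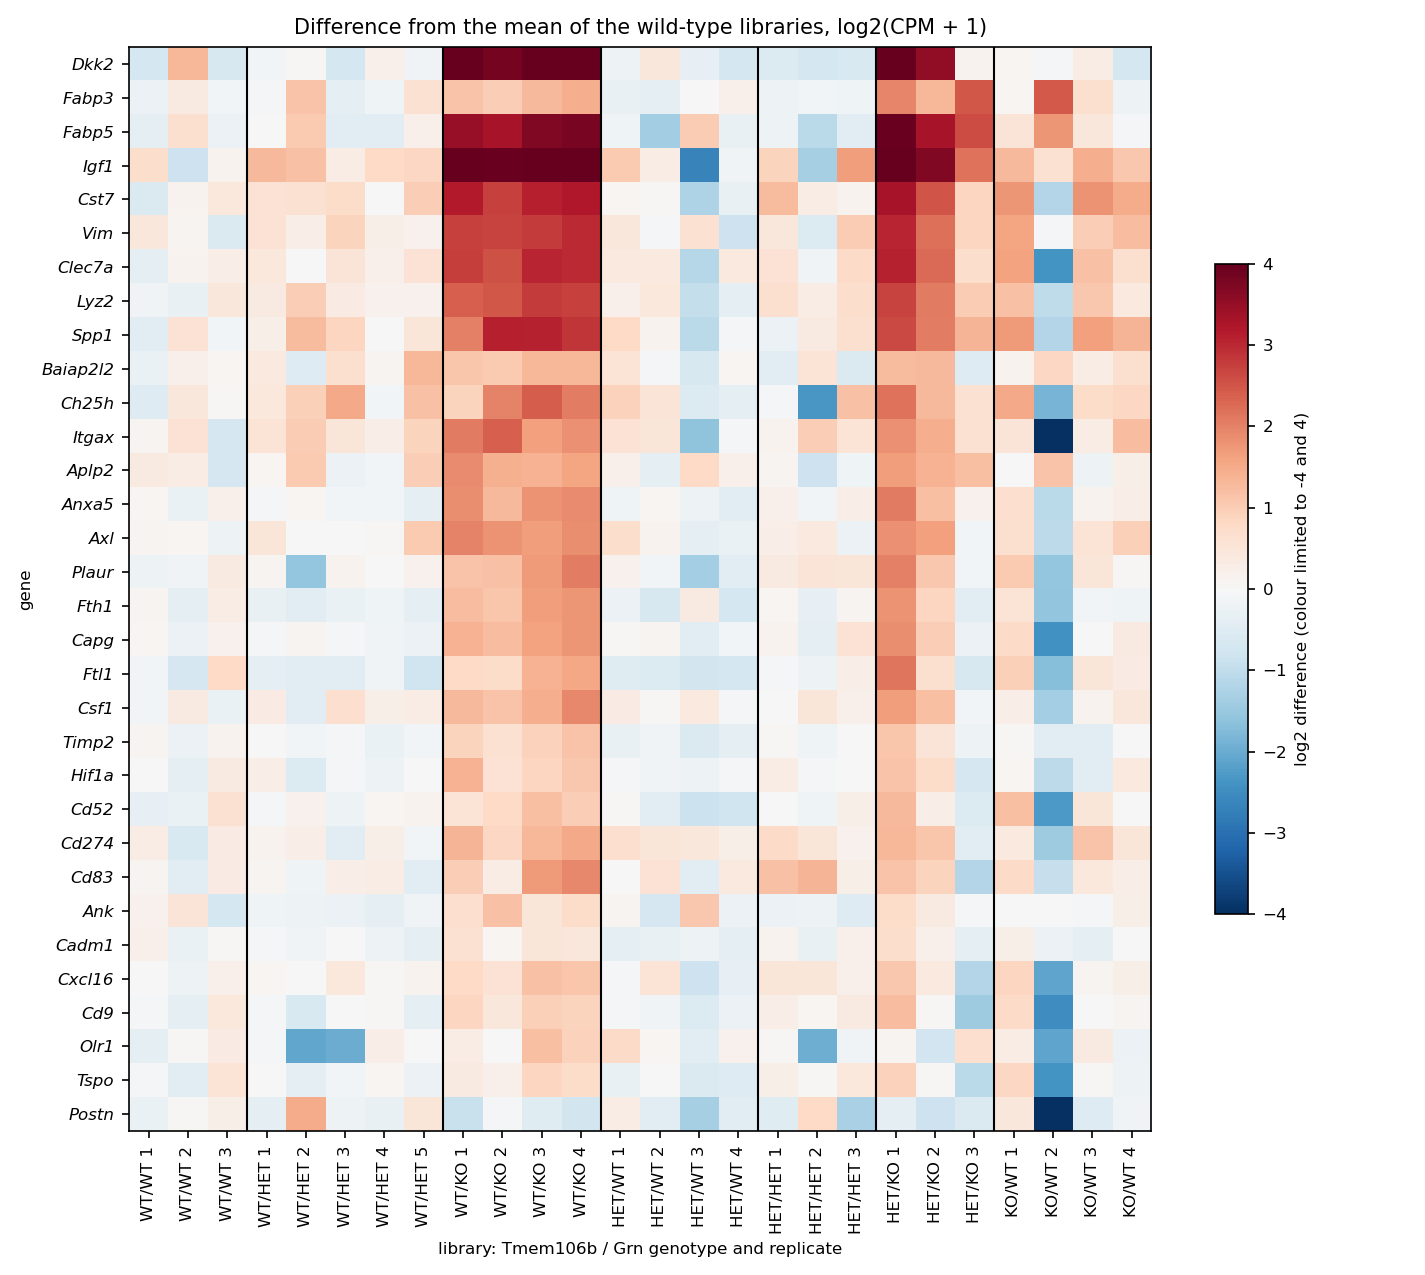
Difference of log2(CPM + 1) from the wild-type mean for the 32 members (rows) in all 26 libraries (columns, by genotype group), with the colour scale limited to -4 and 4. Grn KO libraries are high for most rows, and Tmem106b HET Grn KO replicate 3 and Tmem106b KO replicate 2 differ from their groups.

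Loss of both Grn copies was set against loss of 1 copy. With Tmem106b WT, 12 members were higher in Grn KO than in Grn HET, beside 0.678% of all genes, and 26 were higher in every Grn KO library than in every Grn HET library, beside 4.58% of all genes. The count was 5 without Grn HET replicate 1 or replicate 4, 6 without Grn HET replicate 3, and 26 without both libraries low in microglia markers (1.46% of all genes). Over all genes, 58, 50 and 66 were called higher without Grn HET replicates 1, 4 and 3, against 145 with all libraries. With Tmem106b HET, 7 members were higher, beside 3.77% of all genes, and 8 separated fully, beside 16.9% of all genes. That count was 1 without Grn HET replicate 2 or Grn KO replicate 2, 2 without Grn KO replicate 1, 4 without Grn HET replicate 1 or replicate 3, and 18 without both libraries low in microglia markers (3.62% of all genes). With all libraries 805 of all genes were called higher. The number was 103 without Grn HET replicate 2, 92 without Grn KO replicate 2 and 780 without Grn KO replicate 1. It was 589 and 209 without Grn HET replicates 1 and 3. In the Entire libraries alone the counts against Grn HET were 23 and 17, beside 1.87% and 4.34% of all genes, and with marker sums as covariates 6 and 0, beside 0.234% and 0% of all genes. The Grn KO libraries are shared with the comparisons against Grn WT. Fabp5, Lyz2, Igf1, Vim, Anxa5 and Aplp2 were called in all 5 fits of Grn KO against Grn WT or Grn HET.

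No member was called in Grn HET against Grn WT in either background, where edgeR called no gene of 21371 higher or lower. At an unadjusted p under 0.05 there were 0 members in either background, beside 734 and 1183 of 21371 genes. DESeq2's Wald test called 0 members, with 292 genes higher and 15 lower with Tmem106b WT and 98 higher and 180 lower with Tmem106b HET, and limma-voom called 0 members and 0 genes. The median log2 fold change of the members was 0.04 with Tmem106b WT and 0.11 with Tmem106b HET, against 0.06 and -0.07 over all genes, and the 95% interval lay within a 2-fold change for 13 and 10 members. Spp1 had 285, 577, 438, 244 and 339.9 CPM in Grn HET with Tmem106b WT, overlapping the wild type. Lyz2 in the same libraries had 1940.0, 2997, 1920.4, 1710.1 and 1696 CPM, Clec7a had 89.5, 67.4, 95.8, 77.7 and 99.8 CPM, and Igf1 had 25.1, 23.2, 12.1, 17.7 and 17.9 CPM, all below the lowest Grn KO library of that background.

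The dose of Tmem106b was then compared at a fixed Grn genotype. In Grn KO, 30 of the 32 members were lower with Tmem106b HET than with Tmem106b WT by the sign of their estimate, with a median log2 fold change of -0.47 against -0.03 over all genes, but none was called, as no gene was (smallest adjusted p among members 0.918). At an unadjusted p under 0.05 there was 1 member, beside 811 of 21371 genes. DESeq2 called 0 members, with 24 genes higher and 69 lower, and limma-voom called 0 members and 0 genes. The median rested on the library low in microglia markers: it was -0.18 without Tmem106b HET Grn KO replicate 3 and -0.11 without both such libraries. The median difference of replicate 3 from wild type over the 32 members was -0.10 on the log2(CPM + 1) scale, against 1.80 and 1.16 in replicates 1 and 2 and 1.16 to 1.78 in the 4 Tmem106b WT libraries. The interaction of Grn KO with Tmem106b HET, which asks whether the response to Grn loss differed between backgrounds, was called for no member and no gene (median over members -0.47, over all genes -0.13). That member median was -0.13 without Tmem106b HET Grn KO replicate 3 and -0.06 without both libraries low in microglia markers. At an unadjusted p under 0.05 there were 2 members, beside 917 of 21371 genes. DESeq2 called 0 members, with 70 genes higher and 137 lower, and limma-voom called 0 members and 0 genes.

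No member was called between Tmem106b KO and Tmem106b WT with Grn WT, and among all genes 0 were called higher and 0.00468%, a single gene, lower. At an unadjusted p under 0.05 there were 3 of 32 members, beside 2349 of 21371 genes. DESeq2 called 0 members, with 456 genes higher and 92 lower, and limma-voom called 0 members and 0 genes. Spp1 had 793, 107, 753 and 616 CPM in Tmem106b KO, where replicate 2, low in microglia markers, was below and the others above the wild-type libraries. Spp1 thus had a log2 fold change of 1.22 (adjusted p = 0.43). Cst7 in the same order had 142, 17.8, 144 and 117 CPM, Clec7a had 208, 12.1, 151 and 104 CPM, and Vim had 67.1, 20.7, 44.6 and 53.2 CPM. Replicates 1, 3 and 4 exceeded every wild-type library for 8 members, beside 5.96% of all genes, which were Spp1, Cst7, Clec7a, Axl, Igf1, Ch25h, Vim and Cd274. Without both libraries low in microglia markers Spp1 had a log2 fold change of 1.66 and an adjusted p of 0.69, and still no member was called.

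**Figure D5:**
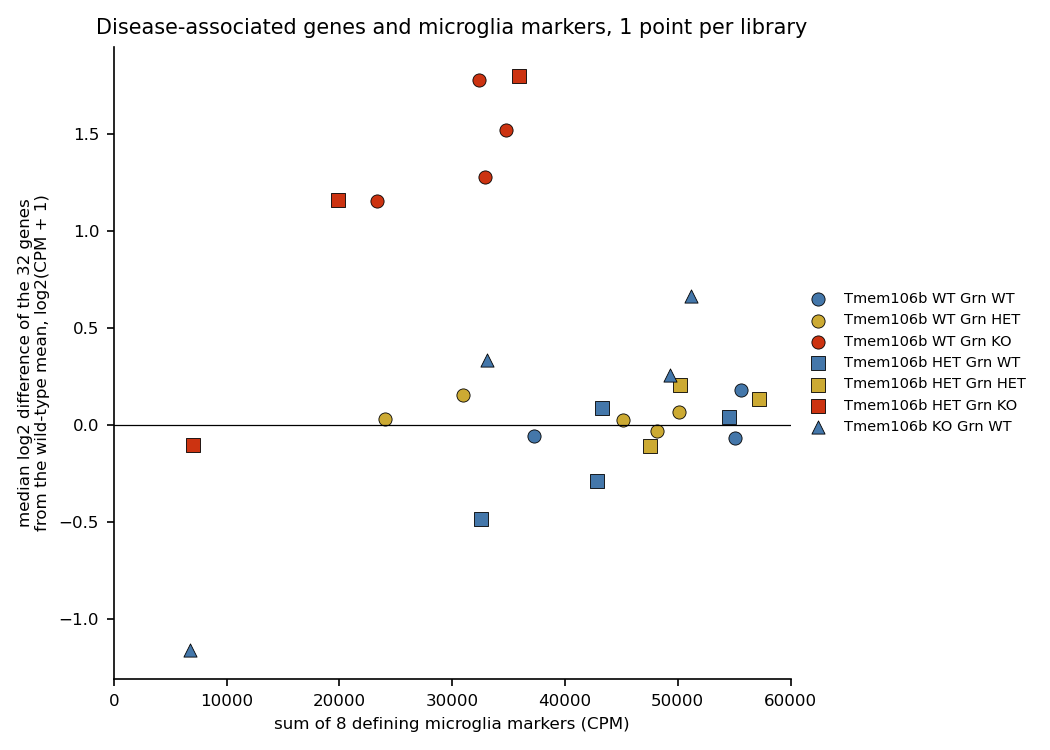
Median over the 32 members of the difference in log2(CPM + 1) from the wild-type mean (vertical axis) against the summed CPM of microglia markers (horizontal axis) for each of the 26 libraries. The Grn KO libraries lie at 1.16 to 1.80 except the one with a marker sum of 7019 CPM, which lies at -0.10.

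A further list of 20 disease-associated microglia genes, also chosen with earlier results of these data known, served as the surrounding programme, and 19 of them were tested. With Tmem106b WT 6 were higher and 0 lower in Grn KO, beside 0.426% and 0.15% of all genes. With Tmem106b HET 5 were higher and 1 lower, beside 8.42% and 6.05% of all genes. In the mean contrast 9 were higher and 1 lower, beside 10.7% and 7.38% of all genes. The first genes described below were picked by smallest p with Tmem106b WT, where none of the list was lower. Gpnmb, a glycoprotein of lysosomes and the cell surface, had 4.14, 1.75 and 8.90 CPM in wild type and 13934, 8314, 9669 and 12937 CPM in Grn KO with Tmem106b WT. It exceeded every member in its log2 fold change of 11.02 (adjusted p = 0.0012), and 9.51 (adjusted p = 0.00057) with Tmem106b HET. In Grn HET with Tmem106b WT, where edgeR called no gene, Gpnmb had 365, 360, 44.6, 60.6 and 26.4 CPM, all above wild type. Tmem106b KO libraries were also above wild type, at 118, 33.6, 190 and 89.2 CPM. With Tmem106b HET the Grn HET libraries, at 14.1, 1.71 and 16.2 CPM, overlapped Grn WT, at 28.1, 12.6, 1.43 and 2.86 CPM. Lgals3, the lectin galectin-3, had 44.1, 41.7 and 42.5 CPM in wild type and 815, 647, 859 and 977 CPM in Grn KO. Apoe, an apolipoprotein that carries lipids between brain cells, went from 7047, 4548 and 6561 CPM to 49499, 54899, 78183 and 83070.0 CPM. Cybb, the catalytic subunit of the phagocyte NADPH oxidase, went from 46.3, 17.9 and 58.3 CPM to 195, 183, 210.4 and 199 CPM, and its log2 fold change of 2.33 (adjusted p = 0.014) with Tmem106b WT compared with 0.60 (adjusted p = 0.33) with Tmem106b HET, a difference that no interaction test called. With Tmem106b HET, Cybb had 70.6, 72.4, 32.5 and 42.9 CPM in Grn WT and 160, 112 and 23.0 CPM in Grn KO. The value of 23.0 CPM is from replicate 3, the library low in microglia markers, which the estimate of 0.60 includes. Trem2, the receptor itself, had a mean log2 fold change of 0.00 (adjusted p = 1), and Tyrobp, its signalling adaptor, 0.84 (adjusted p = 0.041). Trem2 had 1776, 1682 and 2315 CPM in wild type and 2164, 1882, 3024 and 2871 CPM in Grn KO with Tmem106b WT, which overlapped. With Tmem106b HET it had 1760, 1876, 1191 and 1608 CPM in Grn WT and 3095, 1744 and 714 CPM in Grn KO. The last value is from replicate 3, the library low in microglia markers, which the mean estimate for Trem2 includes.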

How the data were processed

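RNA-seq libraries of mouse microglia came from 26 samples in 7 Tmem106b and Grn genotypes. The deposited tables hold, for each of 52636 Ensembl genes, whole read counts, RPKM values and exonic width, all made by the authors. Reads were aligned with GSNAP to GRCm38, per the submitters' processing notes. The version, the counting tool, the annotation release and the use of strand are not given in the sources used here, so reads of overlapping antisense genes may not be told apart (11 members have a gene overlapping their exons, and 7 have another transcript of at least 90% identity over 300 bases). The deposited counts were tested with edgeR 4.0.16 (R 4.3.3): TMM scaling, a filter on low counts, a quasi-likelihood fit of genotype group, sex and dissection over all 26 libraries, and Benjamini-Hochberg adjustment over 21371 genes. Genes with an adjusted p under 0.05 were called. Each fit gives a log2 fold change, its SE and a 95% interval. The authors' RPKM served only for levels between genes. Libraries of the same group differed beyond sampling noise, with a chi-square per gene of 33.8 or more in all 37 pairs within groups. The fit was tested on simulated counts. Alternatives were DESeq2 1.42.0, limma-voom (limma 3.58.1), DESeq2's size factors, no filter, no covariates, marker sums as covariates, Entire libraries only and leaving out each library in turn. The fit without both libraries lowest in microglia markers was added after seeing the data. RefSeq promoters and GENCODE transcripts (blastn 2.17.0) were searched with Python 3.11.15 and pandas 2.3.3. The members, the lists of other genes and the tests were chosen with earlier results of these data known. The rule for named genes was to describe all members, with values per library for those called and for those with the highest levels or narrowest intervals among the rest. Of the further gene list, up to 4 were named by smallest p in Grn KO against WT with Tmem106b WT. Itgax, Ch25h, Baiap2l2, Olr1, Cd274, Trem2 and Tyrobp, outside that rule, were given values after these were seen.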

Additional observations from a re-analysis of the deposited data

Results flagged for a closer look

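Of 128 sets of values, each from 1 member in 1 group of 4 or 5 libraries, 5 had a library farther from its group than Dixon's 95% limit allows, and chance alone gives about 1 in 20 such sets. Clec7a was low in Tmem106b HET Grn WT replicate 3, at 29.7 CPM against 87.1 to 88.4 CPM in the other 3. Lyz2 was high in Tmem106b WT Grn HET replicate 2, at 2997 CPM against 1696 to 1940.0 CPM in the other 4. In the same library Plaur was low, at 14.6 CPM against 44.0 to 50.6 CPM. Anxa5 was low in Tmem106b WT Grn KO replicate 2, at 486 CPM against 688 to 729 CPM. Fabp3 was high in Tmem106b KO replicate 2, at 6.5 CPM against 0.186 to 1.11 CPM, and this library was also low in microglia markers and high in neuron markers. No cause of these 5 values was tested.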

How the results depend on the processing

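Each count of members is followed by that of all genes called higher, except in the ranges from leaving out 1 library. With Tmem106b WT, the 9 members higher in Grn KO than in Grn WT (91 genes) became 20 by DESeq2 (905), 14 in Entire libraries (194), 3 with marker sums as covariates (18) and 19 without both libraries lowest in microglia markers (264), and 0 to 11 when 1 library was left out. With Tmem106b HET, the 13 (1799) became 0 with marker sums (2), 6 with no covariates (154) and 21 without both libraries (892), and 10 to 15 leaving out 1. The 20 of the mean contrast (2285) became 7 with marker sums (88), and 18 to 21 leaving out 1. Against Grn HET with Tmem106b WT, the 12 (145) became 23 by DESeq2 (457), 23 in Entire libraries (400), 21 by limma-voom (286), 6 with marker sums (50) and 26 without both libraries (324), and 5 to 15 leaving out 1. Against Grn HET with Tmem106b HET, the 7 (805) became 15 by DESeq2 (2435), 17 in Entire libraries (927), 0 with marker sums (0), 2 with no covariates (155) and 18 without both libraries (802), and 1 to 10 leaving out 1. The other 7 comparisons gave 0 members in every setting run. Some uncalled estimates changed sign. With Tmem106b HET, Olr1 had a log2 fold change of 0.0043 by DESeq2, 0.0041 with DESeq2's size factors and 0.55 with marker sums; Cd83 had 0.65 in Entire libraries, 0.39 with no covariates and 0.38 without both libraries; Cd274 had -0.056 and Postn 0.23 with marker sums. Olr1 in the mean contrast had -0.017 without both libraries. The cause of these shifts was not tested. No paired analysis was possible because the labels carry no replicate numbers and the numbers used here only name libraries. Members under 1 CPM in wild type, such as Fabp3 and Baiap2l2, have wide intervals at this depth.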
